A study of Caenorhabditis elegans with 12 samples.

Results

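The C-type lectin family of Caenorhabditis elegans was read here as every gene of the deposited count table whose symbol is clec followed by a number, which gave 264 genes of 46778. Counts came from whole larvae of 3 genotypes. The first was ced-3(n717), which carries a loss-of-function allele of the cell death caspase gene. The second was pmk-1(km25), which carries a deletion in a p38 MAP kinase gene, and the third was the wild type strain N2 (WT), against which both mutants were set. Eggs from bleached young adults hatched in M9 buffer over 24 h, and the starved larvae then fed on OP50 bacteria for 18 h at 20 °C, by which time nearly all WT larvae were in the third larval stage. From each of 6 worm samples, 2 per genotype, 1 library was made of total mRNA and 1 of ribosome-protected fragments (RPF, the pieces of mRNA that a ribosome shields from nuclease), so 12 libraries form 6 groups of 2. The labels call the replicates independent and biological without saying whether they were grown apart, so p-values here reflect how these worm samples varied and nothing wider. Both mutant alleles are present in every cell, and the libraries are of whole worms, in which fewer cells of a type and less RNA per cell cannot be told apart.

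C-type lectins are proteins with the fold of a carbohydrate recognition domain, which in some members binds sugars with the help of calcium. In C. elegans the family is large, many members are predicted to be secreted, and infection with bacteria changes the mRNA of many of them, often in the intestine. PMK-1 is the last kinase of a cascade of TIR-1, NSY-1 and SEK-1, and acts through the transcription factor ATF-7 on immune genes of the intestine. CED-3 is the caspase that carries out programmed cell death. The comparisons ask which lectin mRNAs and footprints differ without the caspase or without the kinase.

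All 264 genes were found by identifier in the WBcel235 annotation, which lists 239 as protein coding and 25 as pseudogenes. They lie on every chromosome, with 96 on V, 58 on IV, 51 on II, 38 on I, 18 on III and 3 on X. Tandem groups, in which the next lectin gene lies within 10 kb, hold 177 of them in 52 groups. No count was found in any of the 12 libraries for 51 genes, and 126 had under 10 counts over all libraries together. A filter on low counts was passed by 98 members in mRNA, 91 in RPF and 89 in both, while 164 passed neither. None of the 25 pseudogenes passed. The members that passed included 39 of the 96 on chromosome V and 30 of the 58 on IV, but 5 of the 38 on I, and 67 of the 177 tandem genes against 31 of the 87 that stand alone. The exons of 29 members overlap those of another coding gene, so their reads cannot be assigned with certainty.

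The mRNA libraries held between 15471380 and 17150137 counts each, and the RPF libraries between 6708805 and 10115985. Levels are given in CPM, counts scaled to library size with edgeR's TMM factors. A single library's 3 counts are worth 0.177 to 0.203 CPM for mRNA, and 0.301 to 0.404 CPM for the shallower RPF. The mutated gene pmk-1 had 35.5 and 35.3 CPM in pmk-1 mRNA, against 37.1 and 35.5 CPM in WT mRNA. The mutated gene ced-3 had 5.43 and 6.42 CPM in ced-3 mRNA, against 5.02 and 2.29 CPM in WT mRNA. A deposited count covers the whole gene, altered stretch included, so neither mRNA level checks the genotype labels. In RPF the pmk-1 gene had 25.04 and 25.4 CPM in pmk-1 worms and 42.6 and 48.5 CPM in ced-3 worms, against 47.2 and 52.3 CPM in WT worms, which goes with the label. Genes of the moulting cycle summed to 957 and 1590 CPM in ced-3 mRNA and 4310 and 1040 CPM in pmk-1 mRNA, against 351 and 412 CPM in WT mRNA. Intestine markers were present in every library, at 4120 to 6550 summed CPM in mRNA.

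In WT mRNA a handful of members made up most of the family. In TPM, a level that corrects for exon length, clec-63 was highest at 376.5, followed by clec-50 at 185.9, clec-265 at 161.1 and clec-41 at 78.7. The next were clec-5 at 62.9, clec-1 at 59.6, clec-4 at 54.3 and clec-65 at 51.2. Of these, clec-4, clec-5 and clec-41 belong to the lectins studied in infection, and CLEC-41 is known as an antimicrobial protein. In CPM, the level of clec-63 was 23.9% of the family's sum in WT mRNA and the 5 highest members held 56.4%. A WT mRNA mean of at least 100 CPM was reached by 6 members, of at least 10 CPM by 32 and of at least 1 CPM by 81, while 183 stayed under 1 CPM.

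The summed level of the family was lowest in pmk-1 worms in mRNA, while in RPF both mutants were under WT and their libraries overlapped. Its summed level in mRNA was 2642.5 and 2104 CPM in the ced-3 libraries and 1610.2 and 1665 CPM in the pmk-1 libraries, against 2721.9 and 2886.3 CPM in the WT libraries. In RPF the sums were 3271.3 and 2613.2 CPM in ced-3 and 2604.1 and 2680.7 CPM in pmk-1, against 5328.8 and 4603 CPM in WT. The summed intestine markers moved in the same direction: in RPF they came to 6160 and 4770 CPM in ced-3 and 8390 and 8430 CPM in pmk-1, against 10900 and 9660 CPM in WT. Their median log2 fold in RPF was -0.655 for ced-3 and -0.121 for pmk-1, where single markers went both ways. The part of these markers in the family's sums was not tested. Both mutants lay under both WT libraries in each assay, by more than the spread between replicates except for ced-3 in mRNA, where the mean was 2373.4 ± 380.7 CPM against 2804.2 ± 116.2 CPM in WT (SD, n = 2). With 2 libraries against 2 an exact permutation test cannot pass the threshold, so no p is given for these sums.

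**Figure D1:**
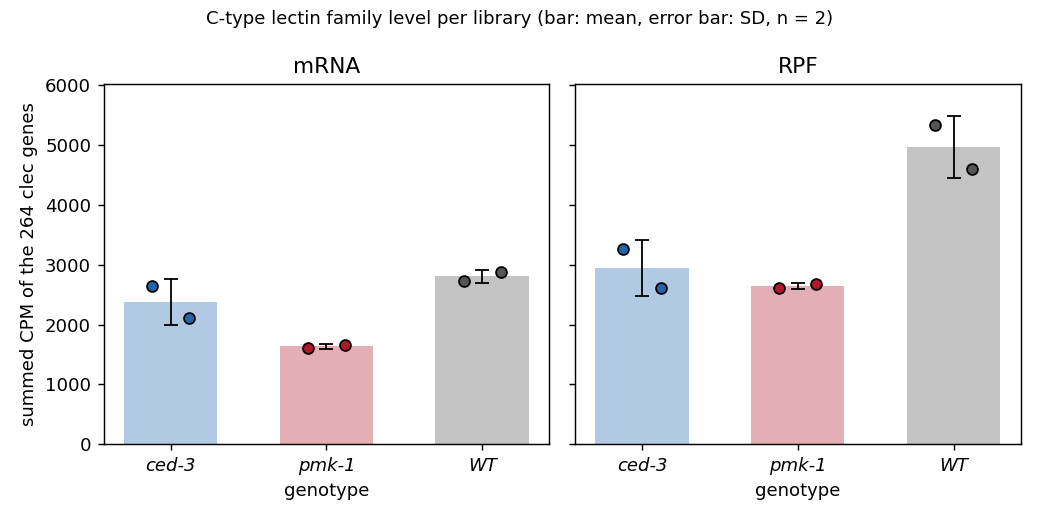
Summed CPM of the 264 lectin genes in each library (points), with the mean (bar) and SD (error bar, n = 2), for ced-3, pmk-1 and WT in mRNA (left) and RPF (right). The pmk-1 libraries sit at 1610.2 and 1665 CPM in mRNA, and both mutants sit under WT in RPF.

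A few abundant members carried most of that difference. By the group means, the family's mRNA sum in pmk-1 minus that in WT was -1166.6 CPM. The gene clec-63 made up 30.8% of that difference, clec-41 19.1%, clec-265 15.9% and clec-4 8.4%. In RPF clec-63 made up 43.5% of the gap between pmk-1 and WT and 43.2% of the gap between ced-3 and WT, and clec-265 made up 20.1% and 18.4%. The sums therefore describe these members more than the family at large.

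Without PMK-1, 6 lectin mRNAs fell and none rose past the threshold among the 98 tested. The 6 were clec-67, clec-4, clec-66, clec-62, clec-47 and clec-65. They were read out of an edgeR quasi-likelihood fit of all genes, with Benjamini-Hochberg adjustment over the 13536 genes tested and a threshold of 0.05 (here and below), and 0.421% of all genes were called in this comparison. Of all genes tested, 0.392% were called lower. The median log2 fold of the tested members was 0.10, beside 0.00 for all genes, so the typical member was not lower. An unadjusted edgeR p under 0.05 was found in 31 members (31.6%, beside 9.51% of all genes), and in 25 in RPF (27.5%, beside 8.68%). In mRNA 18.4% of tested members were at least 2-fold lower, beside 4.21% of all genes. At least 2-fold higher were 9.18%, beside 3.61%.

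The largest fall was that of clec-67, one of the genes long used as a readout of PMK-1 activity. Its level was 0.27 and 0.235 CPM in pmk-1 mRNA, from 4 counts in each library, against 55.1 and 48.5 CPM in WT mRNA. The log2 fold was -7.64 ± 0.52 (SE, adjusted p = 0.00942). In RPF it had 0.108 and 3.31 CPM in pmk-1, against 94.3 and 76.8 CPM in WT. These pmk-1 values come from 1 and 33 counts, and the RPF log2 fold of -5.60 ± 0.95 had an adjusted p of 0.196.

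The gene clec-4, whose loss alters the response of worms to pathogenic bacteria, was at 6.62 and 11 CPM in pmk-1 mRNA, against 113 and 101 CPM in WT mRNA. It fell by 3.59 ± 0.27 on the log2 scale (edgeR adjusted p = 0.0102). The gene clec-47 was at 1.82 and 3.35 CPM in pmk-1 mRNA, against 22.5 and 30.6 CPM in WT mRNA, and fell by 3.34 ± 0.37 (adjusted p = 0.0363). In both genes the pmk-1 and WT libraries did not overlap.

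The other 3 that fell are neighbours on chromosome II. The gene clec-66 was at 9.32 and 12.1 CPM in pmk-1 mRNA, against 67.7 and 58.9 CPM in WT mRNA, and fell by 2.56 ± 0.21 on the log2 scale (adjusted p = 0.0106). The gene clec-62 was at 12.2 and 15.7 CPM in pmk-1 mRNA, against 48.3 and 47.2 CPM in WT mRNA, and fell by 1.77 ± 0.15 on the log2 scale (adjusted p = 0.0133). The gene clec-65 was at 20.2 and 23.9 CPM in pmk-1 mRNA, against 87.5 and 77.3 CPM in WT mRNA, a log2 fold of -1.90 ± 0.23 (adjusted p = 0.0435). The same 3 genes fell in RPF, and they were the members called there of 91 tested, with 0.182% of all genes called. Their RPF log2 folds were -2.25 ± 0.24 for clec-66 (adjusted p = 0.0439), -1.66 ± 0.18 for clec-62 (adjusted p = 0.0442) and -2.09 ± 0.20 for clec-65 (adjusted p = 0.0396). At the level of footprints clec-66 had 22.9 and 22.8 CPM in pmk-1, against 124 and 93.7 CPM in WT, so the change seen in mRNA was also present in the fragments that ribosomes held.

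The calls depended on the WT libraries. When either WT library was left out, 0 of the members were called in mRNA and 0 in RPF, and of all genes 2 were called in mRNA and 0 in RPF. The folds stayed close to those above: without WT replicate 1 and without WT replicate 2 the log2 fold in mRNA was -7.54 and -7.73 for clec-67, and -3.51 and -3.68 for clec-4. Without pmk-1 replicate 1, 3 mRNA calls were left and 0 in RPF, while without pmk-1 replicate 2 there were 9 in mRNA (8.49% of members, beside 2.78% of all genes) and 8 in RPF (8.7%, beside 1.58%). DESeq2 called 4 members higher and 11 lower in mRNA, including all 6 (15.3% of members, beside 2.79% of all genes), and 2 higher and 11 lower in RPF (14.3%, beside 2.22%). Without the mutant libraries that hold more moulting mRNA (ced-3 replicate 2 and pmk-1 replicate 1), 4 members were called higher and 13 lower in mRNA, again including all 6 (17% of members, beside 2.53% of all genes).

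**Figure D2:**
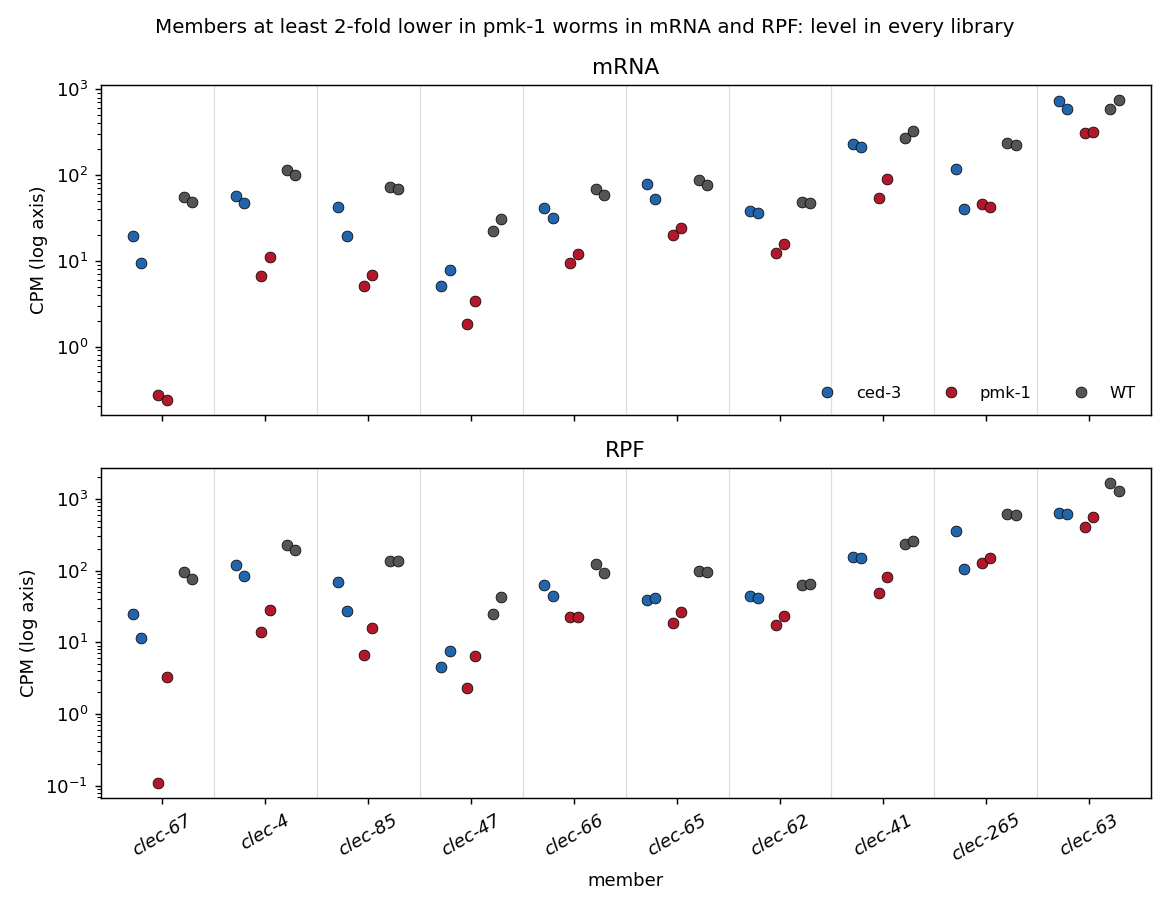
CPM on a log axis in every library of ced-3 (blue), pmk-1 (red) and WT (grey), in mRNA (top) and RPF (bottom). Only members with a mean of at least 5 CPM over pmk-1 and WT in both assays were considered. The 10 shown were at least 2-fold lower in pmk-1 than in WT in both. Levels of clec-67 in pmk-1 mRNA are 0.27 and 0.235 CPM, while clec-63 keeps 305 and 317 CPM in pmk-1 mRNA.

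Several abundant members were lower in pmk-1 without passing the threshold. The gene clec-85, a known target of the p38 pathway, was at 5.13 and 6.89 CPM in pmk-1 mRNA, against 72.8 and 69.5 CPM in WT mRNA (log2 fold -3.56 ± 0.42, adjusted p = 0.0541). Its exons overlap those of Y54G2A.40. The gene clec-41 was at 53.8 and 89 CPM in pmk-1 mRNA, against 266 and 322 CPM in WT mRNA (log2 fold -2.04 ± 0.26, adjusted p = 0.0563).

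The most abundant member, clec-63, was at 305 and 317 CPM in pmk-1 mRNA, against 592 and 749 CPM in WT mRNA (log2 fold -1.11 ± 0.17, adjusted p = 0.0774). The gene clec-265 was at 46.3 and 42.3 CPM in pmk-1 mRNA, against 234 and 225 CPM in WT mRNA (log2 fold -2.37 ± 0.50, adjusted p = 0.223). In each of these 4 genes both pmk-1 libraries were under both WT libraries.

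Among genes with a mean of at least 5 CPM over the compared groups, a fitted level at least 2-fold lower in pmk-1 than in WT was found in 10 of 49 members in mRNA (20.4%), beside 2.71% of all 9406 such genes, and in RPF in 11 of 61 (18%), beside 3.35%. The 10 in mRNA were clec-4, clec-41, clec-47, clec-62, clec-63, clec-65, clec-66, clec-67, clec-85 and clec-265, and all 10 were also at least 2-fold lower in RPF. At least 2-fold higher were 3 members in mRNA and 4 in RPF. No test was made of these shares. Across the 47 members that reached this level in both assays, the log2 folds of RPF and of mRNA correlated at r = 0.979 for pmk-1 against WT. This describes genes whose mRNA and footprints came from the same worms, and genes are not replicates.

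Markers of the intestine, where many lectins are expressed, were set beside these falls. The 11 markers summed to 5690 and 5470 CPM in pmk-1 mRNA, against 6160 and 6550 CPM in WT mRNA, and to 8390 and 8430 CPM in pmk-1 RPF, against 10900 and 9660 CPM in WT RPF. None of the 11 was called in either assay, and their median log2 fold was -0.13 in mRNA and -0.12 in RPF. The part of intestinal RNA in the falls of the 6 called lectins was not tested.

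Higher levels in pmk-1 worms were seen in a few members, none past the threshold. The gene clec-180 was at 24.6 and 6.36 CPM in pmk-1 mRNA, against 2.35 and 1.85 CPM in WT mRNA (log2 fold 2.87 ± 0.71, adjusted p = 0.277). The gene clec-60, which rises in worms infected with Staphylococcus aureus, was at 5.34 and 11.4 CPM in pmk-1 mRNA, against 2.54 and 1.78 CPM in WT mRNA (log2 fold 1.95 ± 0.42, adjusted p = 0.218). The library with more clec-180 was pmk-1 replicate 1, which also had more moulting mRNA, and that with more clec-60 was replicate 2.

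The gene clec-166 was at 19.6 and 12.77 CPM in pmk-1 mRNA, against 7.87 and 8.28 CPM in WT mRNA (log2 fold 1.00 ± 0.23, adjusted p = 0.229). The gene clec-48 was at 19.7 and 18.2 CPM in pmk-1 mRNA, against 9.48 and 10.4 CPM in WT mRNA (log2 fold 0.93 ± 0.19, adjusted p = 0.194). In RPF the members with the highest folds and no overlap included clec-210, at 12.5 and 4.92 CPM in pmk-1, against 4.305 and 2.01 CPM in WT, and clec-205, at 10.2 and 10.8 CPM in pmk-1, against 5.38 and 5.29 CPM in WT. Exons of clec-210 overlap those of srt-56.

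Within several of the 8 tandem groups shown, out of 52, folds in pmk-1 differed between neighbours, which was not tested. In the group of 5 on chromosome II from 12893062 to 12906644 (WBcel235), clec-62, clec-65 and clec-66 fell in pmk-1 mRNA and clec-63 had a log2 fold of -1.11, whereas clec-64 in their midst had 0.26 ± 0.39. The level of clec-64 was 5.67 and 2.71 CPM in pmk-1 mRNA, against 3.66 and 3.31 CPM in WT mRNA. On chromosome IV, clec-67 heads a group of 13 genes from 3922165 to 3975721, of which 5 were tested. Its log2 fold of -7.64 stood beside -0.39 for clec-71, -0.82 for clec-72, 0.22 for clec-75 and -0.16 for clec-76.

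A second group on chromosome IV, from 2823746 to 2855456, held clec-85 with -3.56 at one end and clec-80 with 0.73 ± 0.21 at the other. In between lay clec-82 with 0.39, clec-83 with -0.71 and clec-84 with -0.41. On chromosome II, clec-60 with 1.95 shared a group with clec-61 with -1.04 ± 0.39, both uncalled. In a group of 5 on chromosome V from 14469231 to 14482317 the folds ran from -0.11 to 0.82. In the largest group, 15 genes on V from 16839121 to 16869840, the 10 tested ran from -1.12 to 1.21 and none was called. The genes in these groups that the rule for named members did not choose are given for their position.

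**Figure D3:**
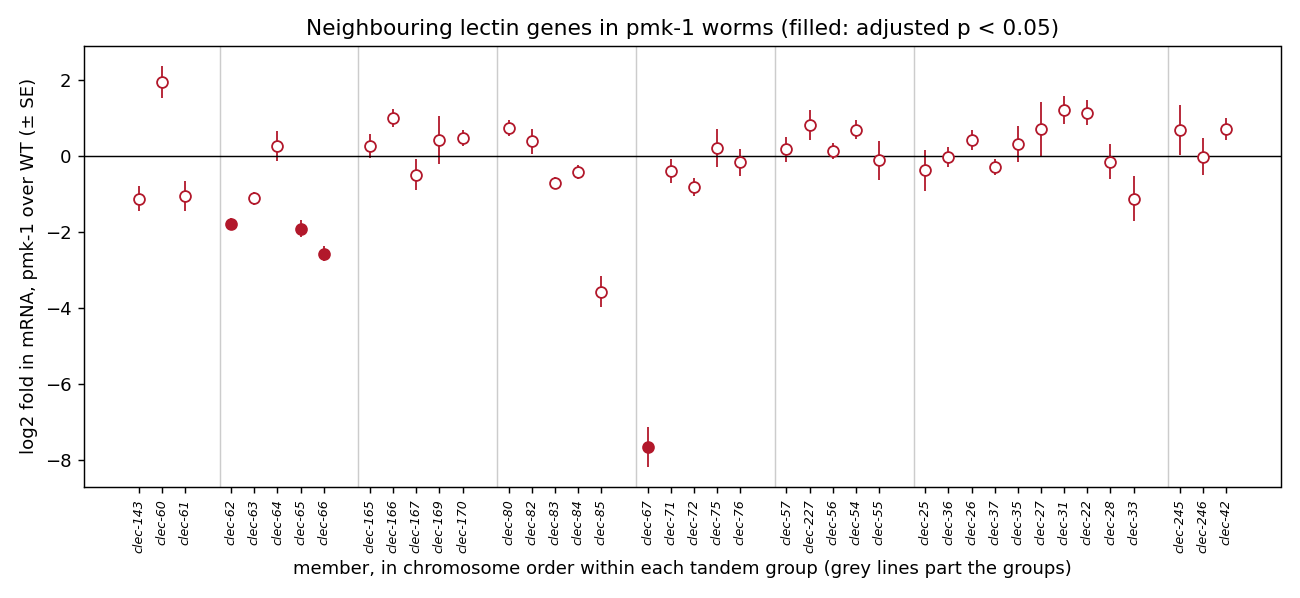
Log2 fold of pmk-1 over WT in mRNA (± SE) for tested lectin genes in 8 tandem groups, in chromosome order within each group; filled points passed an adjusted p of 0.05. The low values of clec-67 and clec-85 stand next to neighbours between -0.82 and 0.73.

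In ced-3 worms no lectin passed the threshold against WT, in mRNA or in RPF. Of 98 members tested in mRNA 0 were called, with 1.77% of all genes called, and 27 had an unadjusted p under 0.05 by edgeR (27.6%, beside 23.5% of all genes). Of 91 tested in RPF 0 were called, with 0.0554% of all genes called, and 25 had an unadjusted p under 0.05 (27.5%, beside 23.7% of all genes). DESeq2 called 6 members higher and 6 lower in mRNA (12.2%, beside 9.88% of all genes), and 5 higher and 6 lower in RPF (12.1%, beside 10.4%). All these shares are near those of all genes. The median log2 fold of the members was 0.07 in mRNA and -0.16 in RPF, beside 0.00 and 0.01 for all genes. Leaving out ced-3 replicate 1 gave 10 calls in mRNA (9.43%, beside 10.6% of all genes) and 12 in RPF (13.2%, beside 9.66%). Leaving out ced-3 replicate 2 gave 1 and 0. Leaving out both mutant libraries with more moulting mRNA gave 16 in mRNA (16%, beside 9.96%) and 15 in RPF (16.3%, beside 9.91%).

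Among members whose mean reached 5 CPM and whose libraries stood apart, the lowest mRNA folds in ced-3 were those of clec-47, clec-67, clec-265 and clec-85. Both mutants are set against the same WT libraries, so their values are given side by side. The gene clec-47 was at 5.13 and 7.79 CPM in ced-3 mRNA, against 22.5 and 30.6 CPM in WT mRNA (log2 fold -2.04 ± 0.34, beside the -3.34 ± 0.37 of pmk-1). The gene clec-67 was at 19.4 and 9.34 CPM in ced-3 mRNA, against 55.1 and 48.5 CPM in WT mRNA (log2 fold -1.85 ± 0.34, beside the -7.64 ± 0.52 of pmk-1). For ced-3 the adjusted p was 0.0533 for clec-47 and 0.0619 for clec-67.

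The gene clec-4 was at 57.1 and 46.6 CPM in ced-3 mRNA (log2 fold -1.04 ± 0.24 against WT, adjusted p = 0.0837). The gene clec-265 was at 119 and 40 CPM in ced-3 mRNA, and clec-85 was at 42.8 and 19.5 CPM, so the replicates of ced-3 differed by more than 2-fold in both. The genes clec-4, clec-47, clec-67, clec-85 and clec-265 were the 5 members at 5 CPM or more that were at least 2-fold lower in ced-3 in mRNA, and they were so in RPF too. They are 10% of 50 such members, beside 2.06% of all genes at this level. In RPF 8 of 58 members were at least 2-fold lower in ced-3 (13.8%, beside 2.88%).

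Higher in ced-3 were clec-180, clec-78, clec-230 and clec-166. The gene clec-180 was at 23.6 and 35.5 CPM in ced-3 mRNA, against 2.35 and 1.85 CPM in WT mRNA (log2 fold 3.81 ± 0.72, adjusted p = 0.0661). In RPF it was at 44.7 and 77.8 CPM in ced-3, against 3.63 and 2.96 CPM in WT (log2 fold 4.22 ± 0.71, adjusted p = 0.0608). The ced-3 libraries were clear of the WT libraries in both assays.

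The gene clec-78 was at 14.9 and 32.8 CPM in ced-3 mRNA, against 2.67 and 1.66 CPM in WT mRNA (log2 fold 3.46 ± 0.76, adjusted p = 0.083). Its log2 fold in RPF was 1.94 (edgeR adjusted p = 0.168). Its span overlaps those of coding genes on the opposite strand, though no exons overlap, and whether the counting used strand is not given. The gene clec-230 was at 6.13 and 18 CPM in ced-3 mRNA, against 1.8 and 1.46 CPM in WT mRNA (log2 fold 2.88 ± 0.83, adjusted p = 0.125). In these genes and in clec-180 the higher ced-3 library was replicate 2, which had 1590 summed CPM of moulting genes, against 957 CPM in replicate 1. In pmk-1 mRNA, clec-78 was at 11.3 CPM in replicate 1 and 3.06 CPM in replicate 2, where moulting genes summed to 4310 and 1040 CPM. In the same libraries clec-230 ran the other way, at 0.135 CPM in replicate 1 and 1.41 CPM in replicate 2. The part of moulting in these levels was not tested.

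The gene clec-166 was even between replicates, at 19.4 and 18 CPM in ced-3 mRNA, against 7.87 and 8.28 CPM in WT mRNA (log2 fold 1.21 ± 0.23, adjusted p = 0.061). Members of at least 5 CPM that were 2-fold or more higher in ced-3 numbered 5 of 50 in mRNA (10%, beside 6.71% of all genes at this level) and 5 of 58 in RPF (8.62%, beside 8.27%), so these shares were close to the background.

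**Figure D4:**
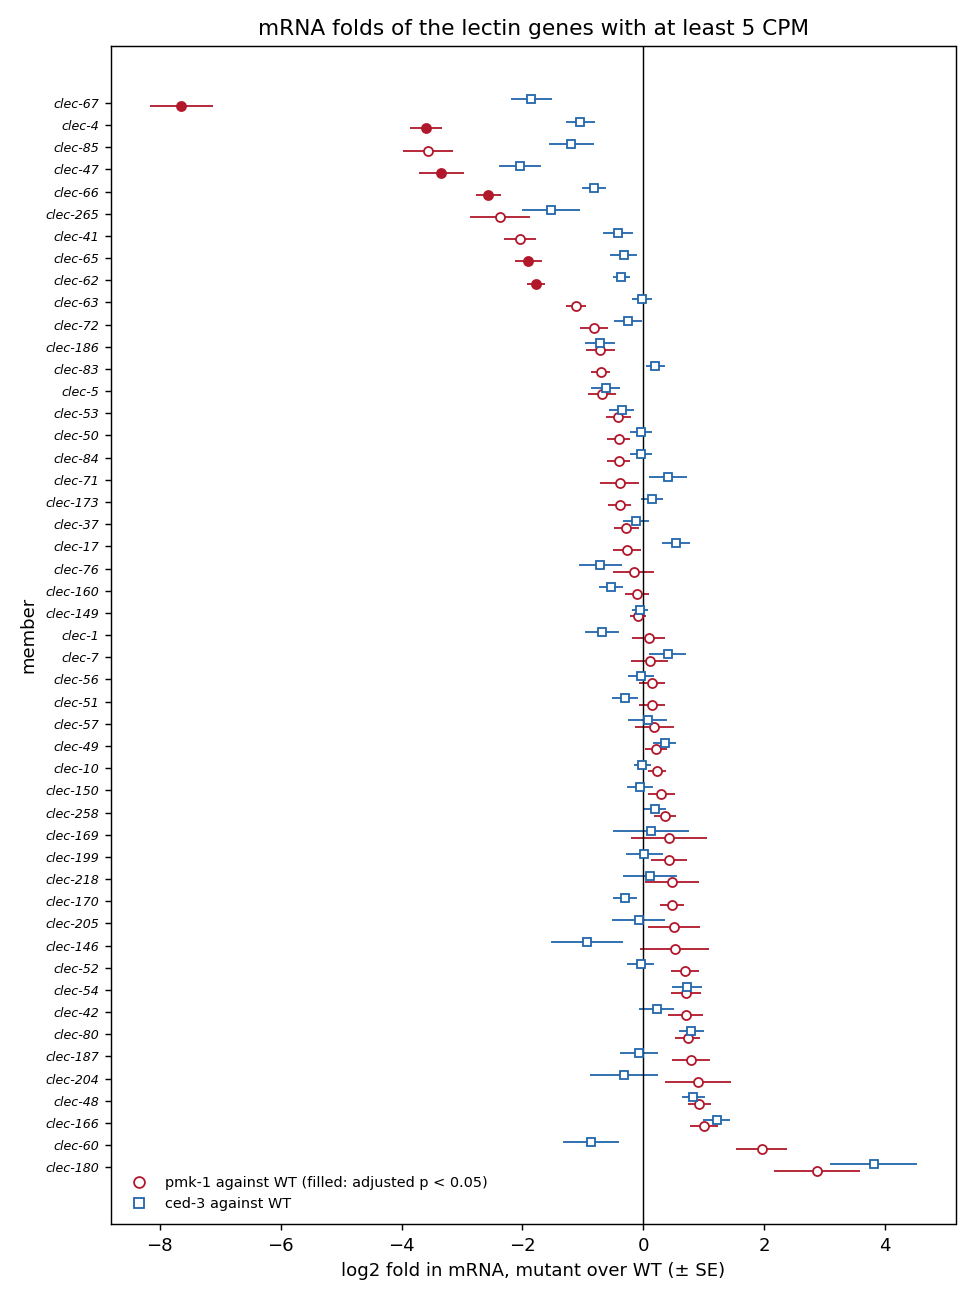
Log2 fold in mRNA (± SE) of the lectin genes with a mean of at least 5 CPM, for pmk-1 over WT (red circles, filled where the adjusted p is under 0.05) and ced-3 over WT (blue squares). The 10 lowest members in pmk-1 run from -7.64 to -1.11, and no ced-3 point passed the threshold.

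Set directly against each other, ced-3 and pmk-1 worms gave 13 called lectin mRNAs of 98, with 9.21% of all genes called. The spread estimate behind these calls includes the WT libraries, whose replicates lay closer together than those of either mutant. With the mutants fitted alone no gene was called. Of the 13, 11 were higher in ced-3 (11.2% of members, beside 6.72% of all genes) and 2 lower (2.04%, beside 2.5%). Higher were clec-67 by 5.79 ± 0.53 on the log2 scale (adjusted p = 0.0184), clec-4 by 2.55 ± 0.26 (adjusted p = 0.0187), clec-85 by 2.37 ± 0.41 (adjusted p = 0.0354) and clec-61 by 1.95 ± 0.37 (adjusted p = 0.037). The others were clec-66, clec-41, clec-65, clec-62, clec-63, clec-8 and clec-83, with log2 folds of 1.75, 1.62, 1.57, 1.41, 1.08, 1.00 and 0.91. Members outside the rule for named genes (clec-8, clec-83, clec-38 and, in RPF, clec-21, clec-229, clec-51 and clec-184) are named here after their values were seen.

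The largest difference was that of clec-67, which had 19.4 and 9.34 CPM in ced-3 mRNA, against 0.27 and 0.235 CPM in pmk-1 mRNA. Lower in ced-3 were clec-60, at 1.18 and 1.19 CPM in ced-3 mRNA, against 5.34 and 11.4 CPM in pmk-1 mRNA (log2 fold -2.82 ± 0.45, adjusted p = 0.0298), and clec-38 (log2 fold -1.55 ± 0.34, adjusted p = 0.0465). The count was 2 without pmk-1 replicate 1 (1.9%, beside 0.458% of all genes) and 21 without ced-3 replicate 1 (19.8%, beside 13.1%). It was 8 without ced-3 replicate 2 (7.84%, beside 2.72%) and 8 without pmk-1 replicate 2 (7.55%, beside 7.14%). With the ced-3 and pmk-1 libraries fitted alone it was 0, as it was for all genes.

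In RPF the same comparison called 8 members higher and 5 lower in ced-3 of 91 tested, with 8.61% of all genes called. Higher in ced-3 were clec-4, clec-66, clec-41, clec-62 and clec-83, which were also called in mRNA, and clec-230, clec-229 and clec-21. The gene clec-230 was at 12.9 and 41.5 CPM in ced-3 RPF, against 0.65 and 2.51 CPM in pmk-1 RPF (log2 fold 4.08 ± 0.79, adjusted p = 0.042). The last 2 rest on 2 counts in pmk-1 RPF each. The ratio of ced-3 to pmk-1 was 38.9 for clec-21, with an exact 95% counting interval of 10.4 to 328, and 21.8 for clec-229, with an interval of 5.62 to 186. In mRNA clec-21 had no count in either pmk-1 library and 53 counts in the ced-3 libraries, which is at least 16.6-fold higher in ced-3 against a bound of 3 counts over both pmk-1 libraries.

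Lower in ced-3 RPF were clec-60 (log2 fold -3.82 ± 0.79), clec-52 (-1.28 ± 0.26), clec-1 (-1.05 ± 0.17), clec-184 (-0.95 ± 0.21) and clec-51 (-0.92 ± 0.19), with adjusted p from 0.0344 to 0.0455. Of these clec-1 is abundant: it had 67 and 54.5 CPM in ced-3 RPF, against 118 and 134 CPM in pmk-1 RPF, and 117 and 123 CPM in WT RPF. The exons of clec-51 overlap those of faah-1, and clec-52 lies in a tandem pair with it. By edgeR 0 members and 0 of all genes were called without pmk-1 replicate 1 or with these libraries fitted alone. There were 7 without pmk-1 replicate 2 (7.61%, beside 5.32% of all genes), 21 without ced-3 replicate 1 (23.1%, beside 12%) and 6 when replicate 2 was the one left out (6.45%, beside 4.91%).

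The change of footprints beyond the change of mRNA, called translation efficiency, was tested as an interaction in 1 fit of all 12 libraries. None of the 102 members tested was called for ced-3 against WT, with 0% of all genes called, and none for pmk-1 against WT, with 0% called. Unadjusted p under 0.05 was found by edgeR in 3 members for ced-3 (2.94%, beside 1.61% of all genes) and 1 for pmk-1 (0.98%, beside 1.26%), and DESeq2 and the fit with worm samples paired called none either. The 3 in ced-3 were clec-63, clec-65 and clec-49, with log2 folds of -1.17 ± 0.29, -0.88 ± 0.30 and -0.85 ± 0.33.

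The most abundant member, clec-63, shows the pattern behind the first of these. Its mRNA was at 721 and 596 CPM in ced-3, against 592 and 749 CPM in WT, so the genotypes overlapped. Its RPF was at 636 and 611 CPM in ced-3, against 1685 and 1309 CPM in WT, with a log2 fold of -1.26 ± 0.23 (adjusted p = 0.0606). With worm samples paired the change of its translation efficiency was -1.17 ± 0.24 on the log2 scale (edgeR adjusted p = 0.227), which did not pass. Intestine markers in RPF summed to 6160 and 4770 CPM in ced-3, against 10900 and 9660 CPM in WT, and in mRNA to 5290 and 4120 CPM in ced-3, against 6160 and 6550 CPM in WT. Their part in the level of clec-63 was not tested.

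Within WT worms, footprints were high relative to mRNA in many lectins. Of 102 members, 20 were higher in RPF than in mRNA and 5 lower, with 33.2% of all genes called. Leaving out WT worm sample 1 left 7 calls (6.54%, beside 10.9% of all genes), and leaving out sample 2 left 8 (7.34%, beside 11.8%). With worm samples paired, as the labels state, 38 were higher and 10 lower, beside 52.4% of all genes. The share called is below the background, but the direction differs from it: 19.6% of members were called higher, beside 13.6% of all genes, and 4.9% lower, beside 19.6%. The median log2 ratio was 0.34 for the members and 0.01 for all genes. No test was made of these shares. Members of this comparison are named by the size of their ratio, after their values were seen. The ratios come from the joint scaling of all 12 libraries, whereas each CPM is scaled within its assay, so a quotient of CPM values comes out slightly higher than the fitted ratio.

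The clearest case was clec-125, with 120 and 98.3 CPM in WT RPF, against 6.13 and 7.51 CPM in WT mRNA, a log2 ratio of 3.78 ± 0.35 (adjusted p = 0.000147). The mutants had it in the same way, at 116.5 and 69.5 CPM in ced-3 RPF and 82.7 and 66.8 CPM in pmk-1 RPF. For clec-83 the values were 103.9 and 82.7 CPM in WT RPF, against 12.83 and 14.8 CPM in WT mRNA, a log2 ratio of 2.54 ± 0.16 (adjusted p = 2.42e-05). Exons of clec-83 and of Y54G2A.7 overlap, and whether the counting used strand is not given in the sources used here.

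The neighbours clec-199 and clec-198 on chromosome IV had log2 ratios of 1.98 ± 0.26 and 1.73 ± 0.20, and clec-63 had 0.95 ± 0.21 (adjusted p = 0.00738). The largest ratio, of clec-137, rests on few mRNA counts and uneven footprints: 39.3 and 5.82 CPM in WT RPF, against 0.186 and 0.127 CPM in WT mRNA, from 3 and 2 counts. This gene lies inside the span of pqn-35 on the opposite strand, though no exons overlap, and whether the counting used strand is not given.

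Fewer footprints than mRNA were seen in clec-87 (log2 ratio -1.44 ± 0.33) and clec-37 (-0.78 ± 0.21), and in 3 genes with next to no footprints. The gene clec-142 had no RPF count and 19 mRNA counts in WT, so its RPF level was at least 3.36-fold lower against a bound of 3 counts over both libraries. The genes clec-22 and clec-221 had 2 and 1 RPF counts in WT. Exons of clec-87 overlap those of iars-2 and exons of clec-221 those of F17C11.4. The abundant members differed from each other. With worm samples paired, the log2 ratio was 1.19 ± 0.11 for clec-265, 0.76 ± 0.10 for clec-4 and 0.72 ± 0.12 for clec-1. In clec-41 it was -0.46 ± 0.1, and all 4 passed the threshold in that paired fit. The paired fit called 52.4% of all genes, beside 33.2% in the main fit, so its calls are not those of the main fit. Without pairing, the log2 ratio was 0.02 ± 0.20 for clec-50, 0.02 ± 0.23 for clec-5 and 0.02 ± 0.21 for clec-65, none of them called. With pairing these genes did not pass either (edgeR adjusted p from 0.854 to 0.945).

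**Figure D5:**
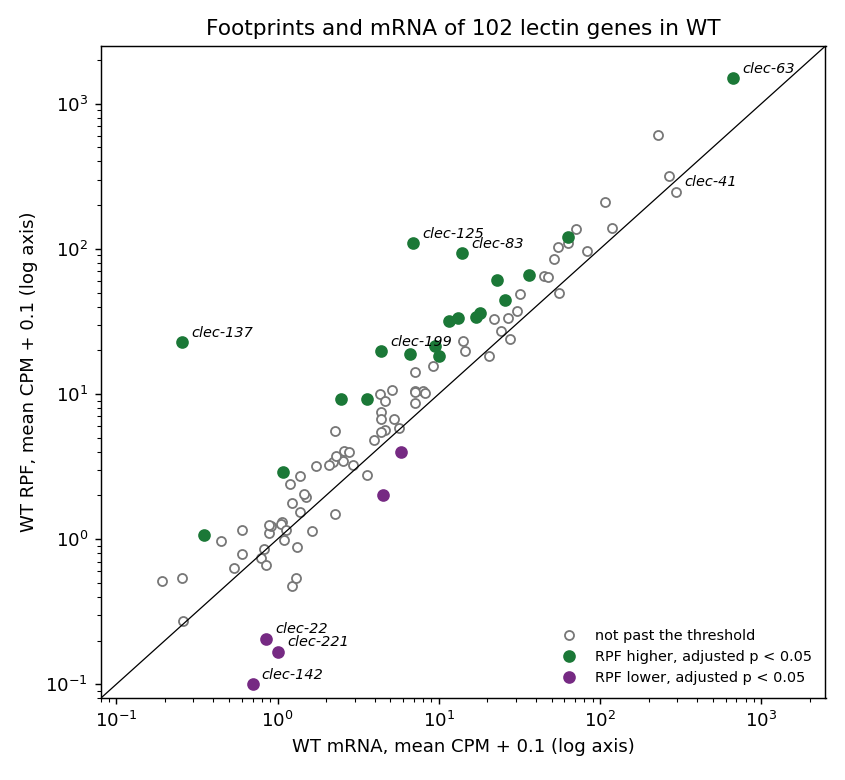
Mean WT level in RPF against mean WT level in mRNA (CPM + 0.1, both axes log) for 102 lectin genes; green points were higher and purple points lower in RPF past an adjusted p of 0.05, and the line marks equal levels. The genes clec-125, clec-83 and clec-137 lie far above the line, and the CPM of each axis is scaled within its assay.

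Lectins that have been studied in infection were read as a list of 16, of which clec-39 and clec-70 had too few counts to be tested in the mRNA and RPF fits. In pmk-1 mRNA 2 of 14 fell against WT (clec-4 and clec-67), none rose, and the median log2 fold was -0.15. In RPF none of the 14 was called for pmk-1 against WT. Against WT, ced-3 gave no call in either assay. Their summed RPF was 560 and 451 CPM in ced-3 and 313 and 389 CPM in pmk-1, against 961 and 887 CPM in WT. The median log2 fold in RPF was -0.62 for ced-3 and -0.06 for pmk-1. By group means, pmk-1 minus WT in RPF was -189.1 CPM for clec-4, -181.3 CPM for clec-41 and -124.5 CPM for clec-85. The pmk-1 sum therefore describes a few abundant members more than the list.

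Members of the list that were not called in pmk-1 against WT mRNA included clec-7 (log2 fold 0.10 ± 0.30), clec-49 (0.21 ± 0.19), clec-42 (0.70 ± 0.29), clec-52 (0.69 ± 0.23) and clec-71 (-0.39 ± 0.32). CLEC-39 and CLEC-49 are known to contribute to defence against Serratia marcescens. The gene clec-86 was at 3.6 and 3.57 CPM in ced-3 mRNA, against 1.49 and 1.08 CPM in WT mRNA (log2 fold 1.47 ± 0.30, adjusted p = 0.0678), and its exons overlap those of alh-10. The abundant clec-5 was at 59.5 and 88 CPM in pmk-1 mRNA, against 133 and 104.4 CPM in WT mRNA (log2 fold -0.69 ± 0.24, adjusted p = 0.427).

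Genes of the p38 pathway and its other targets were read for scale. Of 11 pathway genes, among them tir-1, nsy-1, sek-1 and atf-7, none was called in either mutant against WT in either assay. Of 10 immune effector genes known to need PMK-1, all outside the lectin family, 8 fell in pmk-1 mRNA against WT with a median log2 fold of -4.88, and 5 fell in RPF. The fall of clec-67 exceeded that median, and the other lectins that fell lay between -3.59 and -1.77. Galectins, a family of sugar-binding proteins with another fold, gave no call among 12 in either mutant against WT, with a median of -0.34 in pmk-1 mRNA.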

How the data were processed

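The deposited values are raw read counts, 1 whole number per gene and library. Alignment and counting tools, per the submitters' processing notes, were STAR, Bowtie2 and HTSeq, with the build WBcel235, while annotation release, strand use and the handling of reads with several matches are not given in the sources used here. Groups were taken from the labels. Fits used edgeR 4.0.16 in R 4.3.3 with TMM scaling, filterByExpr (minimum count 10, minimum total 15) and robust glmQLFit with glmQLFTest: 1 fit of the mRNA libraries (13536 genes), 1 of the RPF libraries (12633 genes) and 1 of all 12 (13698 genes) with genotype, assay and their interaction. Benjamini-Hochberg adjustment ran over all genes tested. The SE is the size of the log2 fold over the square root of F. Each fit was tested on simulated data with less spread between replicates than these data have. The biological coefficient of variation here was 0.2 in mRNA and 0.23 in RPF. That test does not show how the fits perform at this spread. Lengths and coordinates come from the Ensembl annotation of WBcel235. The labels state that mRNA and RPF of a replicate share worms, and their deviations from the group means correlated at 0.695 (ced-3), 0.741 (pmk-1) and 0.205 (WT), so the pairing was used as an alternative; replicate numbers pair no genotypes. Named members were those past the threshold for a mutant against WT, the 8 highest per length in WT mRNA, the 4 highest and 4 lowest folds per mutant and assay without overlap at a mean of at least 5 CPM, and the infection list. Members and lists were chosen with earlier results of these data known. Alternatives were DESeq2 1.42.0, RLE factors, no filter, the replicate block, the compared groups alone, transcript length, and leaving out each library. Intervals and bounds cover counting error alone.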

Additional observations from a re-analysis of the deposited data

Results flagged for a closer look

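In 2 of the 89 members tested in both assays (2.25%) the ced-3 libraries lay clear of the WT libraries in opposite directions in RPF and in mRNA. Of all genes tested in both, 135 of 12468 did so (1.08%), and for pmk-1 the counts were 0 members and 253 of all genes (2.03%). The gene clec-49, known from resistance to Serratia marcescens, was at 5.32 and 8.77 CPM in ced-3 RPF, against 11.2 and 9.74 CPM in WT RPF, and at 9.2 and 10.8 CPM in ced-3 mRNA, against 7.93 and 7.77 CPM in WT mRNA. The interaction, which tests this difference, was -0.85 ± 0.33 on the log2 scale (edgeR adjusted p = 1). The gene clec-149 was at 37.7 and 38.4 CPM in ced-3 RPF, against 30.7 and 37.4 CPM in WT RPF, and at 16.6 and 16.1 CPM in ced-3 mRNA, against 16.8 and 17.1 CPM in WT mRNA. Its interaction was 0.27 ± 0.18 (adjusted p = 1). Neither difference passed the test, and with worm samples paired the adjusted p was 0.811 for clec-49 and 0.972 for clec-149.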

How the results depend on the processing

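Counts of members called moved with the settings. Folds were followed only for members named by a mutant against WT comparison, and only in that comparison. None of these log2 folds changed sign under the alternatives run. Of these folds, 304 stayed on the same side of the threshold, 78 passed it newly and 36 no longer passed. In the order ced-3 against WT, pmk-1 against WT and ced-3 against pmk-1, the mRNA counts were 0, 6 and 13 and the RPF counts 0, 3 and 13. DESeq2 gave 12 and 15 for the mutants against WT in mRNA and 11 and 13 in RPF. Without a filter on low counts, 196 members were tested in mRNA and 178 in RPF, so these counts have another base. In mRNA 6 were called for ced-3 against WT (3.06%, beside 3.5% of all genes). For pmk-1 against WT 12 of the 196 were called, beside 0.937% of all genes. In RPF there were 12 (6.74%, beside 5.28%), 9 (5.06%, beside 1.11%) and 23 (12.9%, beside 8.94%), in the order above. With the compared groups alone ced-3 against WT gave 4 in mRNA (4.17%, beside 2.57% of all genes) and 4 in RPF (4.65%, beside 1.6%). In the same setting pmk-1 against WT gave 8 in mRNA, all lower (8.42%, beside 0.591%). The gene clec-85 passed there (edgeR adjusted p = 0.00408), but not without a filter on low counts (0.152). Fitted alone, ced-3 against pmk-1 gave 0 and 0. With the replicate block pmk-1 against WT gave 2 in mRNA (2.04%, beside 0.199% of all genes) and 0 in RPF (beside 0%). With that block ced-3 against pmk-1 gave 8 in mRNA (8.16%, beside 4.17%) and 7 in RPF (7.69%, beside 3.93%). With the numbers of pmk-1 crossed, ced-3 against pmk-1 gave 6 of 98 in mRNA, beside 1.14% of all genes. In RPF the crossed block gave 1 for ced-3 against pmk-1 (1.1%, beside 0.744%) and 1 for pmk-1 against WT (1.1%, beside 0.0712%). Same-numbered samples of different genotypes correlated at -0.147 to 0.087. Leaving out both mutant libraries with more moulting mRNA, chosen like the crossing after seeing the data, gave 16, 17 and 21 in mRNA and 15 and 12 for the mutants against WT in RPF. Leaving out 1 library gave, in the same order, 0 to 10, 0 to 9 and 2 to 21 in mRNA and 0 to 12, 0 to 8 and 0 to 21 in RPF. RPF against mRNA in WT called 25, 48 with the worm sample as a block, and 7 to 8 without 1 WT sample. The cause was not tested for any of these. At the depth of the RPF libraries, levels under 0.301 to 0.404 CPM rest on fewer than 3 counts, and the 164 members that passed neither filter were left out of the RPF and mRNA tests.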
